A study of Mus musculus with 16 samples.

Results

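The livers examined here were from C57BL/6 mice fed a high-fat diet (HFD), with or without later exposure to perfluorooctanoate (PFOA), a perfluorinated carboxylate shaped like a fatty acid. Mice in the HFD_PFOA group had the HFD for 16 weeks and then received PFOA for 8 weeks, and mice in the HFD_vehicle group had the same diet and then vehicle for the same time. Every mouse of both groups had thus been fed HFD, which the submitters used to make the liver steatotic, and was 29 to 30 weeks old. These 8 libraries, 4 mice per group with 1 liver library per mouse, were taken by their labels from the 16 libraries of the series. The other 8 libraries, from mice on a control diet (CD) given PFOA or vehicle (CD_PFOA and CD_vehicle, 4 each), were used to share the estimate of spread and for the comparison between diets. The labels used here name neither the sex, nor the PFOA dose, nor what the diets contained.

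A fatty liver stores triglyceride in lipid droplets and disposes of fatty acids by oxidation in mitochondria and peroxisomes and by export in lipoproteins. The nuclear receptor PPARalpha switches on fatty acid oxidation genes when fatty acids or their mimics bind it, and in rodents its activators enlarge the liver and multiply peroxisomes. PFOA is known as an activator of rodent PPARalpha and of the xenobiotic receptors CAR and PXR, which control drug-metabolising P450 enzymes. Hepatocytes also make most plasma proteins and all bile acids, so transcripts of those functions weigh heavily in liver RNA.

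Across all genes, PFOA on HFD was followed by large rises in genes of fatty acid oxidation, uptake and thioester hydrolysis and by falls in genes of secretory protein folding, plasma proteins, bile acid synthesis and sugar metabolism. Of 53465 genes in the table, 14998 passed the count filter and were tested. At an edgeR adjusted p under 0.05, 2476 genes were called, which was 16.5% of those tested. Of these, 1290 were higher in HFD_PFOA (8.6% of genes tested) and 1186 were lower (7.91%), and the median log2 fold change over all genes tested was 0.01. The rises were the larger changes, since 207 genes rose at least 4-fold and 89 fell at least 4-fold, while 466 of the higher and 543 of the lower calls were below 1.5-fold. The 4 HFD_PFOA libraries did not overlap the 4 HFD_vehicle libraries in 2340 of the called genes. Over all genes tested, called or not, HFD_PFOA lay wholly above HFD_vehicle in 1931 (12.9%) and wholly below it in 1868 (12.5%). In what follows, counts of list members are read against those shares of 8.6% and 7.91%, and list medians against a median of 0.01. The medians of 23 lists lay between -0.2 and 0.2; leaving out 1 HFD library moved them by up to 0.267 and turned the sign in 11 of these lists, so no direction is read from such a median. Levels are counts per 1e+06 counts (CPM), given as the mean ± SD of 4 mice unless each library is listed. Fold changes are HFD_PFOA over HFD_vehicle and carry their SE.

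The HFD libraries held 14456524 to 24349170 counts each. The leading principal component of the 8 libraries carried 43.5% of the variance and placed HFD_PFOA at 42.3 to 45.7 and HFD_vehicle at -55.9 to -36.8. On the next component, with 12.7%, HFD_PFOA 1 and HFD_vehicle 2 lay apart from the rest. In whole liver RNA, fewer cells of a type and less RNA per cell cannot be told apart. The summed level of 5 defining hepatocyte markers (Alb, Ttr, Apoa1, Serpina1a and Cps1) was 44750.00 to 54830.00 CPM in HFD_PFOA and 69930.00 to 82850.00 CPM in HFD_vehicle. All 5 were abundant in every library, and their sum was lower in each HFD_PFOA library than in any HFD_vehicle library. Most of that sum was Alb in both groups, so it mainly follows that gene. Among markers of other tissues, 8 of 11 exocrine pancreas genes and 4 of 10 skeletal muscle genes were at 0 in all 8 libraries.

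**Figure D1:**
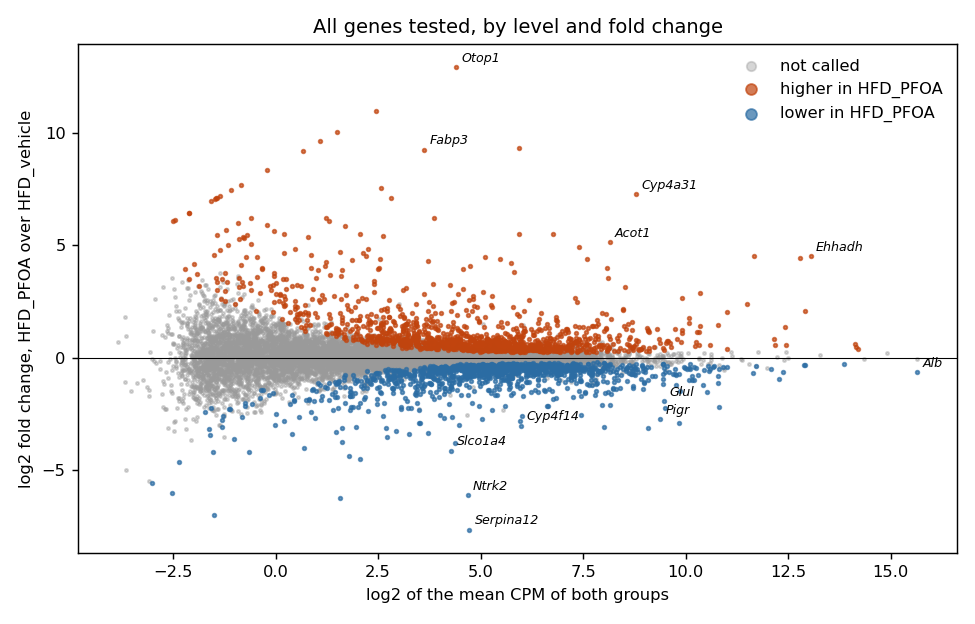
Each point is 1 of the 14998 genes tested; the x axis is the log2 of the mean CPM of both groups and the y axis the log2 fold change of HFD_PFOA over HFD_vehicle. The 1290 higher calls reach farther from 0 than the 1186 lower calls, from Otop1 at the top to Serpina12 at the bottom.

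The most extreme rises were in transcripts that the HFD_vehicle livers held at or near 0. Otop1, a proton channel, had 51.6, 35.4, 27.1 and 54.6 CPM in HFD_PFOA, against 0, 0, 0 and 0 CPM in HFD_vehicle. With no count in any HFD_vehicle library, its level was at least 1214-fold higher in HFD_PFOA, if the 4 HFD_vehicle libraries together are set to 3 counts. Aqp3, a water and glycerol channel, had 1086 counts in the 4 HFD_PFOA libraries and 0 in the 4 HFD_vehicle libraries, a difference of at least 316-fold. Gabrg1, a subunit of a GABA receptor, also had no HFD_vehicle count and was at least 161-fold higher. For Kcnq3, a potassium channel, the bound was 124-fold. Vmn2r3, a vomeronasal receptor gene, had 322 counts in the 4 HFD_PFOA libraries and 0 in the 4 HFD_vehicle libraries and was at least 93.7-fold higher. It had 0.0847, 4.63, 4.28 and 3.80 CPM in HFD_PFOA, against 0, 0, 0 and 0 CPM in HFD_vehicle, so HFD_PFOA 1 was close to the HFD_vehicle libraries, and its call (edgeR adjusted p = 4.85e-04) was lost with limma-voom (adjusted p = 0.0699). Pla2g4f and Plb1, both phospholipases, were at least 50.03-fold and at least 32.3-fold higher. Fabp3, the fatty acid binding protein of heart and muscle, had 2433 counts in the 4 HFD_PFOA libraries and 3 in the 4 HFD_vehicle libraries, a ratio of 707.7 with a counting interval of 241.9 to 3434. Ucp3, a mitochondrial carrier best known from muscle, had 17.2, 10.6, 8.44 and 11.2 CPM in HFD_PFOA, against 0, 0, 0.200 and 0.0766 CPM in HFD_vehicle (log2 fold change 7.53 ± 0.54, edgeR adjusted p = 3.29e-08). Sptlc3, a subunit of the enzyme that starts sphingolipid synthesis, had 13.9 ± 8.57 CPM in HFD_PFOA and 0.102 ± 0.204 CPM in HFD_vehicle (log2 fold change 7.12 ± 0.74, edgeR adjusted p = 3.34e-06). In each of these transcripts every HFD_PFOA library lay above every HFD_vehicle library. Such separation was a condition for naming the largest rises, so it adds no evidence for them.

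The rises with the smallest p-values included several genes that HFD_vehicle livers already expressed and 1 transcript that they held near 0. Slc27a1, a fatty acid transport protein and acyl-CoA synthetase, had 144, 114, 109.5 and 108 CPM in HFD_PFOA, against 2.16, 2.65, 2.27 and 3.41 CPM in HFD_vehicle (log2 fold change 5.49 ± 0.20, edgeR adjusted p = 3.35e-13). The mitochondrial and cytosolic thioesterases Acot2 and Acot1 are close copies, so reads of one may be counted for the other. Acot1 had 578, 587, 507 and 529.5 CPM in HFD_PFOA, against 15.4, 20.1, 14.6 and 12.03 CPM in HFD_vehicle, a 35.4-fold rise. Its lowest HFD_PFOA value was far above its highest HFD_vehicle value. Trpm4, a calcium-activated cation channel, had 25.9, 24.2, 21.98 and 27.3 CPM in HFD_PFOA, against 1.35, 1.48, 1.20 and 1.07 CPM in HFD_vehicle (log2 fold change 4.28 ± 0.17, edgeR adjusted p = 1.02e-12). Slc27a1 and Trpm4 likewise did not overlap between groups. Gm15441, the transcript near 0 in HFD_vehicle, is non-coding, with 12031 counts in the 4 HFD_PFOA libraries and 16 in the 4 HFD_vehicle libraries; it lies opposite Txnip and overlaps it (Gm15441 (ENSMUSG00000074398.5) at chr3:96555765-96566801 on the minus strand, Txnip (ENSMUSG00000038393.14) at chr3:96557957-96561883 on the plus strand, GRCm38). The libraries were not stranded, so their reads cannot be told apart there, and Txnip itself, an inhibitor of thioredoxin named only for that overlap, had 144 ± 13.3 CPM in HFD_PFOA and 57.9 ± 9.49 CPM in HFD_vehicle (log2 fold change 1.32 ± 0.19, edgeR adjusted p = 4.19e-05).

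The deepest falls took several transcripts to near 0. Serpina12, which encodes the secreted serpin vaspin, had 0.0847, 0.696, 0.0778 and 0.157 CPM in HFD_PFOA, against 56.0, 68.2, 32.2 and 52.7 CPM in HFD_vehicle (log2 fold change -7.67 ± 0.39, edgeR adjusted p = 4.78e-11). It lies at chr12:104028769-104044443 on the minus strand (GRCm38), and its HFD_PFOA livers held it at under 1 CPM. Ntrk2, a neurotrophin receptor, had 0.297, 0.696, 1.24 and 0.588 CPM in HFD_PFOA, against 44.8, 40.6, 41.8 and 75.5 CPM in HFD_vehicle (log2 fold change -6.14 ± 0.45, edgeR adjusted p = 7.12e-09). Slco1a4, an organic anion transporter, had 1.10, 0.573, 4.59 and 1.88 CPM in HFD_PFOA, against 26.6, 36.7, 52.5 and 31.3 CPM in HFD_vehicle (log2 fold change -4.15 ± 0.52, edgeR adjusted p = 9.14e-06). These 3 genes were far lower in every HFD_PFOA liver. Atp2b2, a calcium pump of the plasma membrane, fell (0.303 ± 0.328 CPM in HFD_PFOA and 6.61 ± 1.86 CPM in HFD_vehicle). Cyp21a1, a steroid hydroxylase, fell as well (0.0602 ± 0.0403 CPM in HFD_PFOA and 1.22 ± 1.01 CPM in HFD_vehicle). Among the falls with the smallest p-values was Sdr9c7, a short-chain dehydrogenase, with 8.64, 8.64, 8.71 and 7.87 CPM in HFD_PFOA, against 55.6, 63.2, 58.1 and 49.96 CPM in HFD_vehicle (log2 fold change -2.74 ± 0.14, edgeR adjusted p = 5.31e-11). Hsd11b1, the liver enzyme that regenerates active glucocorticoid, had 65.03, 50.1, 40.3 and 43.8 CPM in HFD_PFOA, against 259.6, 285, 369.7 and 277 CPM in HFD_vehicle (log2 fold change -2.58 ± 0.17, edgeR adjusted p = 2.08e-09). Its locus overlaps another annotated gene. Pigr, the receptor that carries polymeric immunoglobulin across epithelia into bile, had 234.99, 158, 189 and 115 CPM in HFD_PFOA, against 1012, 1240.03, 1196 and 1186 CPM in HFD_vehicle (log2 fold change -2.73 ± 0.18, edgeR adjusted p = 2.08e-09). In each of these genes every HFD_PFOA library lay below every HFD_vehicle library. For those named as the largest falls, this separation was a condition of being named and adds no evidence.

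**Figure D2:**
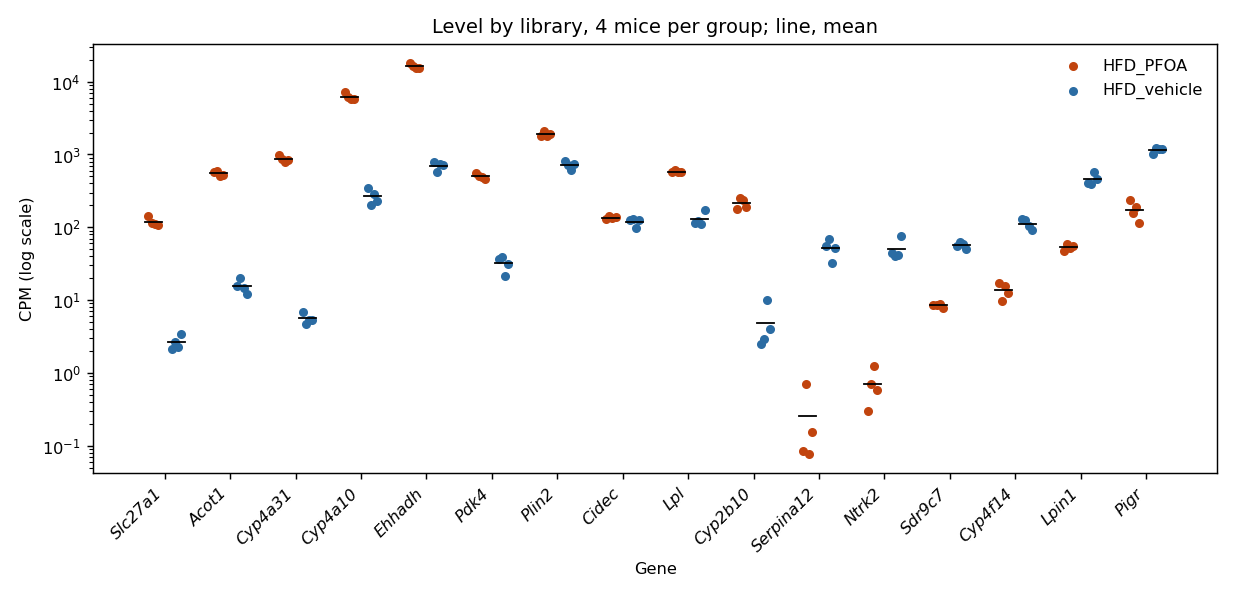
Points are the CPM of single libraries on a log scale for 16 genes, HFD_PFOA left of HFD_vehicle, with a line at the mean of 4 mice. Cidec overlaps between groups; the other genes separate, in either direction.

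Peroxisome proliferators are known to act through a direct repeat of the hexamer AGGTCA with 1 base between the copies, so the 250 bases before the RefSeq start of each gene were searched for it on both strands, allowing 2 mismatches in the 12 fixed bases. Such a match stood in 3.24% of all promoters in the RefSeq table (build GRCm38.p6) and in 3.33% of the tested genes that matched the table by symbol. It stood in 8 of 133 genes called at least 4-fold higher (6.02%), in 17 of 315 called at least 2-fold higher (5.4%) and in 13 of 206 called at least 2-fold lower (6.31%). The shares among rises and falls were thus close to each other. The promoters of 3 genes that rose and of Serpina12, the deepest fall, are printed below as examples, with the match in capitals. The Ucp3 stretch is chr7:100472741-100472990, plus strand, and its match begins 51 bases before the start. Acot4, a peroxisomal thioesterase, has chr12:84038129-84038378, plus strand, with the match on the opposite strand. Plin2, the main lipid droplet coat protein of liver, has chr4:86670060-86670309, minus strand, also with the match on the opposite strand. Serpina12 has chr12:104044444-104044693, minus strand. Such a match says only that these letters stand in the window.
Ucp3: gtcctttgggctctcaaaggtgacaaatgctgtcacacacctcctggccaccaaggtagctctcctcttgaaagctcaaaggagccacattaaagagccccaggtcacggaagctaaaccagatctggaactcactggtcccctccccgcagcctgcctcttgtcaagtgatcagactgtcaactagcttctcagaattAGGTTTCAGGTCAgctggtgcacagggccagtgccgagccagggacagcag
Acot4: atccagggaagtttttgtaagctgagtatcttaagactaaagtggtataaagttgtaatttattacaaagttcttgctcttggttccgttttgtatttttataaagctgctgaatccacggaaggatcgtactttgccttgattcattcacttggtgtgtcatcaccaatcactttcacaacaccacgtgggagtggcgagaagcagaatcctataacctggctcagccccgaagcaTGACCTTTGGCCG
Plin2: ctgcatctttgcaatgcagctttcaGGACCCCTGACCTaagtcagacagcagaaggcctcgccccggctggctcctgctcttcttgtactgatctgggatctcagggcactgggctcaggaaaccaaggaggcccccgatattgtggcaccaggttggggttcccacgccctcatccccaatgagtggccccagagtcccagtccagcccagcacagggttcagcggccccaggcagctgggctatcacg
Serpina12: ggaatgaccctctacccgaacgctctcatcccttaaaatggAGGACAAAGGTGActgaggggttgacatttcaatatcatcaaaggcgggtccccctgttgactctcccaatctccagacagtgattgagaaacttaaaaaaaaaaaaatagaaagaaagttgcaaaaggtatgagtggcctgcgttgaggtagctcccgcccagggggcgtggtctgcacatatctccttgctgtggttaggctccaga

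Peroxisomal oxidation was one of the groups with the most called members. Of the genes for peroxisomal fatty acid oxidation, 16 of 23 tested members rose and 2 fell, with a median log2 fold change of 1.12. Ehhadh, which carries out the middle steps of the peroxisomal cycle, had 17753, 16489, 15222 and 15372 CPM in HFD_PFOA, against 798, 573, 734 and 709 CPM in HFD_vehicle. Averaged over the 8 HFD libraries it was among the 10 most abundant transcripts. Every HFD_PFOA library was higher than any HFD_vehicle library. Crat, which moves acetyl units onto carnitine, rose by a log2 fold change of 1.95 ± 0.11, edgeR adjusted p = 2.89e-10, and Acsl1, the acyl-CoA synthetase, by 2.02 ± 0.14, edgeR adjusted p = 2.84e-09. Abcd3, an importer of acyl-CoA, rose (1670.3 ± 188 CPM in HFD_PFOA and 493 ± 35.5 CPM in HFD_vehicle). Eci2, an enoyl-CoA isomerase, rose too (303 ± 30.9 CPM in HFD_PFOA and 115 ± 5.89 CPM in HFD_vehicle). Scp2, which holds a peroxisomal thiolase and a sterol carrier, went the other way (1276 ± 212 CPM in HFD_PFOA and 1822 ± 129 CPM in HFD_vehicle; log2 fold change -0.51 ± 0.11, edgeR adjusted p = 0.00266). Of the peroxisome biogenesis genes, 7 of 21 rose and 1 fell (median 0.30). The peroxisome biogenesis list held smaller changes than the oxidation list. Pex11a, which drives peroxisome division, led them with 478, 491, 397 and 416 CPM in HFD_PFOA, against 143, 119, 144 and 133 CPM in HFD_vehicle (log2 fold change 1.73 ± 0.13, edgeR adjusted p = 1.40e-08), while Pex2, an import ring protein, fell with a log2 fold change of -0.62 ± 0.11, edgeR adjusted p = 5.19e-04.

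Most mitochondrial oxidation genes rose. Among mitochondrial fatty acid oxidation genes, 19 of 21 tested members rose and 0 fell, with a median log2 fold change of 1.16. Slc22a5, the carnitine transporter of the cell membrane, had 66.1, 63.003, 70.3 and 53.9 CPM in HFD_PFOA, against 14.3, 11.5, 12.1 and 12.4 CPM in HFD_vehicle (log2 fold change 2.33 ± 0.13, edgeR adjusted p = 1.13e-10). Hadha and Hadhb, the subunits of the trifunctional protein, had log2 fold changes of 1.29 ± 0.08 and 1.55 ± 0.09. These rises were smaller than those of the peroxisomal Ehhadh and similar to each other. Acadl, a long-chain acyl-CoA dehydrogenase, had 585 ± 27.2 CPM in HFD_PFOA and 246 ± 13.6 CPM in HFD_vehicle (log2 fold change 1.25 ± 0.08, edgeR adjusted p = 5.04e-10). Decr1, needed for unsaturated fatty acids, had 591, 504, 489 and 502 CPM in HFD_PFOA, against 223, 188, 183 and 200.5 CPM in HFD_vehicle, with HFD_PFOA 1 apart above its group. Cpt1a, which controls the entry of long chains into mitochondria, changed less, with 548 ± 27.1 CPM in HFD_PFOA and 418 ± 16.2 CPM in HFD_vehicle (log2 fold change 0.39 ± 0.11, edgeR adjusted p = 0.0211), and its call was lost without HFD_PFOA 2, HFD_PFOA 3, HFD_PFOA 4 or HFD_vehicle 4 or with scaling by library totals (edgeR adjusted p = 0.0524 to 0.0643). Among ketone body genes, 4 of 8 rose and 1 fell (median 0.25). Slc16a1, a monocarboxylate carrier that exports ketones, had 165 ± 10.5 CPM in HFD_PFOA and 84.8 ± 5.84 CPM in HFD_vehicle (log2 fold change 0.96 ± 0.09, edgeR adjusted p = 2.20e-07).

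Omega-oxidation, in which P450 enzymes hydroxylate the far end of the chain, held both strong rises and a strong fall. Of its genes, 10 of 15 tested members rose and 1 fell, with a median log2 fold change of 1.11. Cyp4a31 had 995, 877, 777 and 843 CPM in HFD_PFOA, against 6.91, 4.74, 5.40 and 5.40 CPM in HFD_vehicle. The HFD_PFOA values were 155-fold the HFD_vehicle values on average. Cyp4a14 had 15087, 13603, 12299 and 12617 CPM in HFD_PFOA, against 664, 453, 853 and 505 CPM in HFD_vehicle (log2 fold change 4.44 ± 0.19, edgeR adjusted p = 2.16e-12). Cyp4a32 had 105 ± 15.7 CPM in HFD_PFOA and 7.41 ± 1.94 CPM in HFD_vehicle (log2 fold change 3.82 ± 0.22, edgeR adjusted p = 2.68e-10). The Cyp4a genes lie in a cluster of close copies, so single members are uncertain. Cyp4a12a and Cyp4a12b, which in mice are known as male-biased, rose by 3.16 ± 0.25, edgeR adjusted p = 2.58e-08 and by 4.41 ± 0.45, edgeR adjusted p = 6.99e-07 on the log2 scale. Aldh3a2, the fatty aldehyde dehydrogenase of the pathway, had 2568 ± 225.2 CPM in HFD_PFOA and 937 ± 108 CPM in HFD_vehicle (log2 fold change 1.46 ± 0.12, edgeR adjusted p = 2.57e-08). Cyp4f14, a fatty acid and vitamin E hydroxylase, was the member that fell, with 17.3, 9.70, 15.6 and 12.6 CPM in HFD_PFOA, against 129.7, 125, 104 and 92.6 CPM in HFD_vehicle.

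Acyl-CoA thioesterases release free fatty acids from coenzyme A. For these and the coenzyme A turnover genes, 12 of 24 tested members rose and 3 fell, with a median log2 fold change of 0.43. Acot3, a peroxisomal thioesterase, had 86.4, 101.3, 87.4 and 65.3 CPM in HFD_PFOA, against 3.98, 2.55, 6.26 and 3.68 CPM in HFD_vehicle (log2 fold change 4.39 ± 0.34, edgeR adjusted p = 1.40e-08). Acot4, printed above, had 335, 281, 229.8 and 239 CPM in HFD_PFOA, against 47.0, 33.9, 53.4 and 39.4 CPM in HFD_vehicle (log2 fold change 2.64 ± 0.20, edgeR adjusted p = 9.87e-09). Neither overlapped between groups. Acot6 rose by 2.08 ± 0.20, edgeR adjusted p = 2.29e-07 and Acot12, a cytosolic acetyl-CoA hydrolase, by 0.94 ± 0.09, edgeR adjusted p = 4.08e-07. Pank1, the rate-limiting kinase of coenzyme A synthesis, had 372 ± 27.6 CPM in HFD_PFOA and 192 ± 14.2 CPM in HFD_vehicle (log2 fold change 0.95 ± 0.10, edgeR adjusted p = 1.09e-06). The 3 members that fell were Baat, which conjugates bile acids to amino acids, its relative Acnat2, and Acot11, with log2 fold changes of -0.64 ± 0.10, -1.45 ± 0.16 and -1.38 ± 0.25.

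Uptake and binding of fatty acids followed the same direction. Of the uptake and binding genes, 11 of 20 tested members rose and 0 fell, with a median log2 fold change of 0.79. Fabp1, the abundant liver binding protein, had 8983, 8058, 6908 and 7574 CPM in HFD_PFOA, against 3687, 2947, 2892 and 2811 CPM in HFD_vehicle (log2 fold change 1.35 ± 0.11, edgeR adjusted p = 2.45e-08). Fabp4, the adipocyte binding protein, had 103, 89.1, 75.6 and 116 CPM in HFD_PFOA, against 27.9, 27.1, 23.7 and 28.9 CPM in HFD_vehicle (log2 fold change 1.83 ± 0.22, edgeR adjusted p = 6.31e-06). Cd36, a membrane fatty acid receptor, had 751 ± 18.4 CPM in HFD_PFOA and 341 ± 22.7 CPM in HFD_vehicle (log2 fold change 1.14 ± 0.14, edgeR adjusted p = 5.26e-06); its locus overlaps another annotated gene. Slc27a4, a fatty acid transport protein, rose by 0.95 ± 0.11, edgeR adjusted p = 4.92e-06.

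In the lipid droplet, coat proteins and lipases moved in both directions. Of the droplet and lipolysis genes, 9 of 19 tested members rose and 2 fell, with a median log2 fold change of 0.48. Plin2 had 1776, 2102, 1779 and 1933 CPM in HFD_PFOA, against 817, 723, 617 and 748 CPM in HFD_vehicle (log2 fold change 1.39 ± 0.13, edgeR adjusted p = 1.62e-07). Hsd17b11, a droplet-bound dehydrogenase, had 2003, 1587, 1533 and 1537 CPM in HFD_PFOA, against 269, 262, 278 and 234.9 CPM in HFD_vehicle (log2 fold change 2.68 ± 0.12, edgeR adjusted p = 9.12e-12). Both coat and droplet enzyme were higher in every HFD_PFOA liver. The lipase Pnpla2 rose (194 ± 12.5 CPM in HFD_PFOA and 80.6 ± 8.04 CPM in HFD_vehicle; log2 fold change 1.27 ± 0.13, edgeR adjusted p = 5.10e-07). Its inhibitor G0s2 rose as well (126 ± 19.4 CPM in HFD_PFOA and 43.9 ± 7.44 CPM in HFD_vehicle; log2 fold change 1.52 ± 0.20, edgeR adjusted p = 1.99e-05). Lipe, the hormone-sensitive lipase, had 21.6 ± 2.87 CPM in HFD_PFOA and 6.06 ± 0.346 CPM in HFD_vehicle (log2 fold change 1.83 ± 0.14, edgeR adjusted p = 7.89e-09). Not every coat protein followed. Plin4 fell instead, with 14.6, 14.6, 13.3 and 27.6 CPM in HFD_PFOA, against 75.3, 84.0, 70.6 and 85.6 CPM in HFD_vehicle (log2 fold change -2.17 ± 0.30, edgeR adjusted p = 3.38e-05). Cidea, which fuses droplets, rose (170.1 ± 53.5 CPM in HFD_PFOA and 61.4 ± 28.5 CPM in HFD_vehicle; log2 fold change 1.47 ± 0.37, edgeR adjusted p = 0.00908). Its relative Cidec had 129, 143, 134 and 137 CPM in HFD_PFOA, against 125, 132, 96.7 and 126 CPM in HFD_vehicle and was not called (log2 fold change 0.18 ± 0.27, edgeR adjusted p = 0.745). The lipase and binding genes Lipe, Fabp4 and Aqp7 are also adipocyte markers, so the fat cell list of 11 genes was read beside them. Of its genes that were tested, 3 of 7 rose and 2 fell (median 0.18). The summed level of the list was 1495 to 1818 CPM in HFD_PFOA and 4342 to 4901 CPM in HFD_vehicle, most of it from Car3 and Pck1, which hepatocytes also express. Car3, a carbonic anhydrase, fell (633 ± 115 CPM in HFD_PFOA and 2947 ± 355 CPM in HFD_vehicle; log2 fold change -2.22 ± 0.19, edgeR adjusted p = 5.83e-08), as did Pck1. The other 4 genes were not tested: Lep was at 0 in all 8 libraries, and Adipoq, Plin1 and Retn averaged under 0.1 CPM over them.

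Genes tied to PPARgamma-type steatosis split. Of 14 tested members, 6 rose and 3 fell, with a median of -0.10. Krt23, a keratin, had 61.004, 68.1, 70.2 and 64.98 CPM in HFD_PFOA, against 1.54, 4.90, 3.80 and 2.07 CPM in HFD_vehicle (log2 fold change 4.47 ± 0.29, edgeR adjusted p = 1.70e-09). Mogat1, a monoacylglycerol acyltransferase, had 49.1, 52.4, 47.8 and 46.4 CPM in HFD_PFOA, against 8.15, 7.35, 6.26 and 7.16 CPM in HFD_vehicle (log2 fold change 2.75 ± 0.21, edgeR adjusted p = 1.66e-08). Vldlr, the receptor for very low density lipoprotein, had 64.2 ± 13.2 CPM in HFD_PFOA and 13.6 ± 1.91 CPM in HFD_vehicle (log2 fold change 2.25 ± 0.19, edgeR adjusted p = 6.73e-08). These 3 genes were higher in every HFD_PFOA liver, unlike the next. Apoa4, an apolipoprotein that rises in fatty mouse liver, had 144, 242, 266 and 349 CPM in HFD_PFOA, against 1366, 1319.7, 851 and 1253 CPM in HFD_vehicle (log2 fold change -2.26 ± 0.40, edgeR adjusted p = 4.72e-04). Pparg itself had 19.9 ± 2.67 CPM in HFD_PFOA and 27.4 ± 2.83 CPM in HFD_vehicle (log2 fold change -0.46 ± 0.15, edgeR adjusted p = 0.0446), a call that was lost without HFD_PFOA 1, HFD_PFOA 2, HFD_PFOA 3, HFD_PFOA 4, HFD_vehicle 1, HFD_vehicle 2 or HFD_vehicle 3 (edgeR adjusted p = 0.0536 to 0.139). Ppara had 129.8 ± 11.3 CPM in HFD_PFOA and 112 ± 15.3 CPM in HFD_vehicle and was not called (log2 fold change 0.22 ± 0.10, edgeR adjusted p = 0.133).

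**Figure D3:**
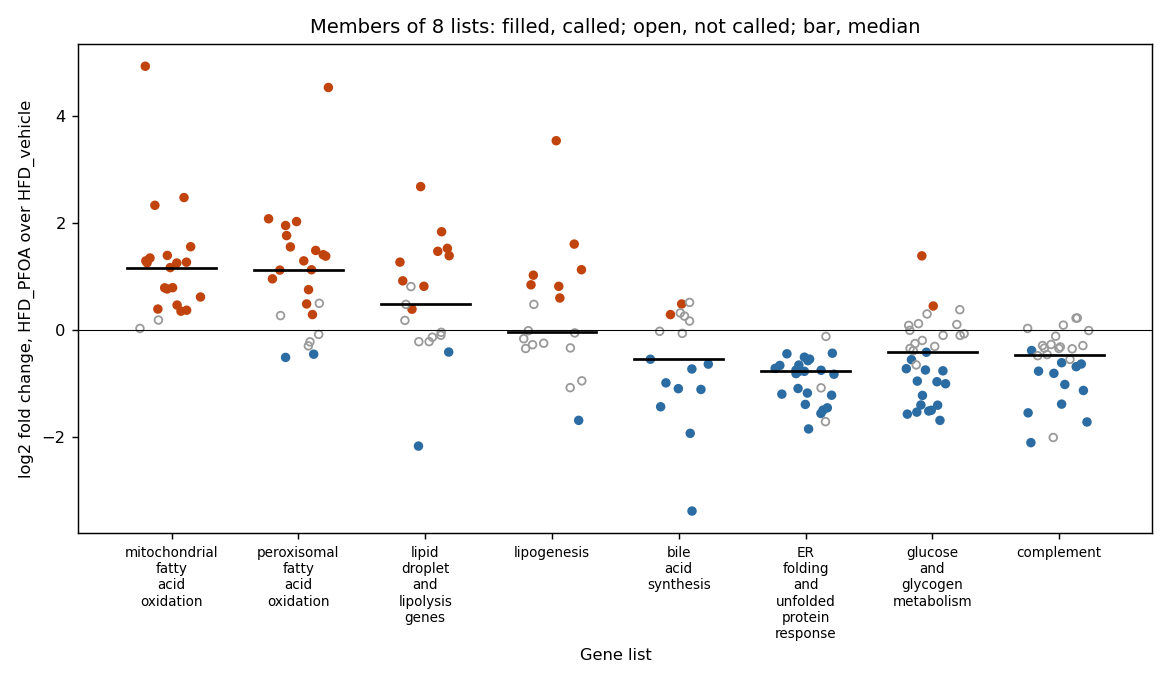
Each point is the log2 fold change of 1 tested member of 8 gene lists, with filled points for called genes (orange higher, blue lower), open points for genes not called and a bar at the list's median. Members of the mitochondrial list lie above 0 throughout and those of the endoplasmic reticulum folding list below it, while the lipogenesis list spreads to both sides.

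Synthesis of fatty acids and triglyceride showed no single direction. Of the lipogenesis genes, 7 of 18 tested members rose and 1 fell, with a median log2 fold change of -0.04. Scd2, a desaturase that adult liver expresses at a low level, had 194, 540.5, 698 and 600.04 CPM in HFD_PFOA, against 39.5, 42.4, 35.3 and 58.2 CPM in HFD_vehicle (log2 fold change 3.53 ± 0.39, edgeR adjusted p = 1.91e-06). Me1, the NADPH-producing malic enzyme, had 653, 689, 566 and 597 CPM in HFD_PFOA, against 285, 176, 184 and 179 CPM in HFD_vehicle (log2 fold change 1.602 ± 0.24, edgeR adjusted p = 6.57e-05). Mlxipl, the sugar-responsive factor ChREBP, had 442 ± 24.2 CPM in HFD_PFOA and 217.7 ± 13.3 CPM in HFD_vehicle (log2 fold change 1.02 ± 0.14, edgeR adjusted p = 3.10e-05). Acacb, the carboxylase whose product restrains mitochondrial fatty acid entry, had 259 ± 19.04 CPM in HFD_PFOA and 119 ± 25.9 CPM in HFD_vehicle (log2 fold change 1.12 ± 0.21, edgeR adjusted p = 6.23e-04). Fasn, the fatty acid synthase, had 1339.8 ± 131 CPM in HFD_PFOA and 1622 ± 234.4 CPM in HFD_vehicle and was not called (log2 fold change -0.28 ± 0.29, edgeR adjusted p = 0.603). Srebf1, its regulator, had 361 ± 45.8 CPM in HFD_PFOA and 456 ± 37.8 CPM in HFD_vehicle and was not called (log2 fold change -0.34 ± 0.18, edgeR adjusted p = 0.229), though a fit on the 8 HFD libraries alone called it lower (edgeR adjusted p = 0.0147).

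Among elongation and desaturation genes, 5 of 15 rose and 2 fell (median 0.24), with Fads2 at 0.83 ± 0.18 and Hacd3 at 0.83 ± 0.10. For triglyceride and phospholipid synthesis, 3 of 22 rose and 3 fell (median 0.06). Gpat3, an acyltransferase of glycerol phosphate, had 42.5, 60.997, 45.4 and 51.1 CPM in HFD_PFOA, against 9.501, 10.4, 11.3 and 11.2 CPM in HFD_vehicle (log2 fold change 2.24 ± 0.15, edgeR adjusted p = 2.89e-09). The next gene went the other way. Lpin1, the phosphatidate phosphatase, had 46.9, 59.7, 51.4 and 54.8 CPM in HFD_PFOA, against 404, 396, 571 and 457 CPM in HFD_vehicle (log2 fold change -3.10 ± 0.34, edgeR adjusted p = 1.67e-06). Pemt, which makes phosphatidylcholine, had 105 ± 2.86 CPM in HFD_PFOA and 203 ± 13.8 CPM in HFD_vehicle (log2 fold change -0.95 ± 0.11, edgeR adjusted p = 4.03e-06).

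Cholesterol synthesis and uptake genes gave 6 rises and 1 fall among 25 tested, with a median of 0.24. Hsd17b7 and Lss, enzymes of the later steps, rose by 0.91 ± 0.18, edgeR adjusted p = 0.00116 and by 0.87 ± 0.20, edgeR adjusted p = 0.00438. The number of higher calls depended on single libraries, and leaving out any 1 of the HFD libraries lowered it, to 4 at most. It was 3 without HFD_PFOA 1, HFD_PFOA 3, HFD_vehicle 3 or HFD_vehicle 4, and 2 without HFD_vehicle 2. In a fit on the 8 HFD libraries alone it was 12. The median became 0.39 without HFD_vehicle 1.

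Of the lipoprotein genes, 5 of 29 tested members rose and 10 fell, with a median log2 fold change of -0.15. The log2 fold changes of this list ran from -2.26 to 2.25. Among the members named here, the smallest p-values were nevertheless those of rises. Lpl, the lipase of plasma triglyceride that normal adult liver barely makes, had 576, 604, 571 and 579.6 CPM in HFD_PFOA, against 115, 122, 112 and 176 CPM in HFD_vehicle (log2 fold change 2.15 ± 0.18, edgeR adjusted p = 3.45e-08). Pltp, the phospholipid transfer protein, had 142 ± 25.9 CPM in HFD_PFOA and 35.5 ± 6.31 CPM in HFD_vehicle (log2 fold change 1.999 ± 0.20, edgeR adjusted p = 6.65e-07). Apoa5 and Apof, secreted apolipoproteins, fell with a log2 fold change of -0.99 ± 0.14, edgeR adjusted p = 3.09e-05 and of -1.03 ± 0.11, edgeR adjusted p = 1.75e-06, and Scarb1, the receptor for high density lipoprotein, of -0.76 ± 0.12, edgeR adjusted p = 1.98e-04. Mttp, which loads lipid onto apolipoprotein B, rose slightly (575 ± 31.9 CPM in HFD_PFOA and 420.3 ± 33.8 CPM in HFD_vehicle; log2 fold change 0.45 ± 0.09, edgeR adjusted p = 0.00136).

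Bile acid synthesis was mostly lower. Of its genes, 2 of 17 tested members rose and 9 fell, with a median log2 fold change of -0.55. Cyp39a1, an oxysterol hydroxylase at chr17:43667425-43751431 (GRCm38), had 0.805, 2.25, 3.77 and 2.27 CPM in HFD_PFOA, against 21.3, 19.9, 27.5 and 26.9 CPM in HFD_vehicle (log2 fold change -3.38 ± 0.52, edgeR adjusted p = 1.07e-04). Akr1d1, a steroid reductase of the main pathway, had 50.1 ± 9.05 CPM in HFD_PFOA and 136 ± 20.5 CPM in HFD_vehicle (log2 fold change -1.44 ± 0.23, edgeR adjusted p = 1.52e-04). Cyp2c70, which makes the muricholic acids of mice, had 192 ± 7.48 CPM in HFD_PFOA and 412 ± 77.2 CPM in HFD_vehicle (log2 fold change -1.10 ± 0.15, edgeR adjusted p = 3.37e-05). Cyp7a1, the rate-limiting enzyme, had 3.26, 2.62, 5.52 and 3.76 CPM in HFD_PFOA, against 10.5, 9.90, 33.6 and 4.71 CPM in HFD_vehicle (log2 fold change -1.93 ± 0.46, edgeR adjusted p = 0.00522). Its groups overlapped, and its call was lost with limma-voom (adjusted p = 0.0618). Fgfr4, the receptor through which the gut represses bile acid synthesis, also fell (15.7 ± 1.61 CPM in HFD_PFOA and 31.1 ± 2.40 CPM in HFD_vehicle; log2 fold change -0.99 ± 0.12, edgeR adjusted p = 6.74e-06). So did the nuclear repressor Nr0b2 (40.96 ± 4.59 CPM in HFD_PFOA and 67.9 ± 6.12 CPM in HFD_vehicle; log2 fold change -0.73 ± 0.15, edgeR adjusted p = 0.00138). Among bile acid and organic anion transporters, 3 of 18 tested members rose and 7 fell, with a median log2 fold change of -0.46. Slc10a2, a sodium-dependent bile acid transporter, had 18.05, 8.43, 13.7 and 10.9 CPM in HFD_PFOA, against 67.8, 64.4, 51.8 and 76.4 CPM in HFD_vehicle (log2 fold change -2.35 ± 0.23, edgeR adjusted p = 4.54e-07). Abcc4, an efflux pump of the basolateral membrane, rose instead, with 38.2, 105, 60.7 and 67.3 CPM in HFD_PFOA, against 7.99, 9.33, 13.7 and 9.9995 CPM in HFD_vehicle (log2 fold change 2.74 ± 0.35, edgeR adjusted p = 1.05e-05).

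Xenobiotic genes answered unevenly. Of the genes known to respond to CAR or PXR, 10 of 25 tested members rose and 1 fell, with a median log2 fold change of 0.57. Cyp2b10, the classic CAR target, had 178, 254, 234.9 and 189 CPM in HFD_PFOA, against 2.47, 2.91, 9.99 and 4.02 CPM in HFD_vehicle (log2 fold change 5.52 ± 0.38, edgeR adjusted p = 2.84e-09). Cyp2c55 had 48.04 ± 1.74 CPM in HFD_PFOA and 7.78 ± 0.998 CPM in HFD_vehicle (log2 fold change 2.63 ± 0.20, edgeR adjusted p = 1.40e-08). Cyp2c29, another P450 of the list, had 4851 ± 886 CPM in HFD_PFOA and 915 ± 225.3 CPM in HFD_vehicle (log2 fold change 2.41 ± 0.24, edgeR adjusted p = 5.11e-07). Por, the reductase that serves all microsomal P450 enzymes, had 571 ± 78.0 CPM in HFD_PFOA and 205 ± 42.3 CPM in HFD_vehicle (log2 fold change 1.47 ± 0.16, edgeR adjusted p = 1.47e-06). Sult1e1, the oestrogen sulfotransferase, was the member that fell, with 1.14, 0.0819, 0.856 and 0.392 CPM in HFD_PFOA, against 3.44, 4.03, 5.73 and 8.77 CPM in HFD_vehicle (log2 fold change -3.14 ± 0.82, edgeR adjusted p = 0.0107). Nr1i3, which encodes CAR, had 21.1 ± 3.93 CPM in HFD_PFOA and 18.4 ± 3.60 CPM in HFD_vehicle and was not called (log2 fold change 0.20 ± 0.16, edgeR adjusted p = 0.469).

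Among other phase I enzymes, 7 of 33 rose and 6 fell (median 0.04). Large members moved both ways here. Aox3, an aldehyde oxidase, had 192, 131, 124 and 128 CPM in HFD_PFOA, against 386, 465, 454 and 444 CPM in HFD_vehicle (log2 fold change -1.61 ± 0.19, edgeR adjusted p = 5.58e-06). Ces2c, a carboxylesterase, had 40.9 ± 5.21 CPM in HFD_PFOA and 11.02 ± 2.03 CPM in HFD_vehicle (log2 fold change 1.88 ± 0.19, edgeR adjusted p = 7.75e-07). For NRF2 and glutathione genes, 7 of 38 rose and 5 fell (median 0.05). Gstt2 had 145, 129, 109.9 and 107 CPM in HFD_PFOA, against 23.2, 16.7, 21.1 and 22.03 CPM in HFD_vehicle (log2 fold change 2.56 ± 0.14, edgeR adjusted p = 1.11e-10). Gstm2 had 18.6, 32.8, 26.6 and 33.1 CPM in HFD_PFOA, against 88.4, 76.6, 84.3 and 82.6 CPM in HFD_vehicle (log2 fold change -1.58 ± 0.25, edgeR adjusted p = 1.65e-04), so glutathione transferases moved both ways. The NRF2 marker gene Nqo1 had 15.3 ± 3.40 CPM in HFD_PFOA and 12.98 ± 1.31 CPM in HFD_vehicle and was not called (log2 fold change 0.24 ± 0.18, edgeR adjusted p = 0.437). Gclc, which starts glutathione synthesis, had 715 ± 47.4 CPM in HFD_PFOA and 827 ± 76.2 CPM in HFD_vehicle and was not called (log2 fold change -0.21 ± 0.12, edgeR adjusted p = 0.262).

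In each class of plasma proteins listed, falls outnumbered rises. Of the complement genes, 0 of 29 tested members rose and 12 fell, with a median log2 fold change of -0.46. C9, a pore-forming component, had 149, 66.4, 76.1 and 86.4 CPM in HFD_PFOA, against 391, 462, 323 and 449 CPM in HFD_vehicle (log2 fold change -2.11 ± 0.26, edgeR adjusted p = 6.60e-06). C4bp, an inhibitor of the cascade, had 189.7, 162.6, 177 and 164 CPM in HFD_PFOA, against 463, 462, 436 and 449.5 CPM in HFD_vehicle (log2 fold change -1.39 ± 0.10, edgeR adjusted p = 7.12e-09). C1s1, a protease of its start, had 143 ± 12.4 CPM in HFD_PFOA and 313 ± 13.1 CPM in HFD_vehicle (log2 fold change -1.13 ± 0.08, edgeR adjusted p = 1.01e-08). For coagulation and fibrinolysis, 3 of 30 tested members rose and 12 fell, with a median log2 fold change of -0.34. F11, a clotting protease, had 11.003 ± 1.77 CPM in HFD_PFOA and 27.6 ± 0.914 CPM in HFD_vehicle (log2 fold change -1.33 ± 0.16, edgeR adjusted p = 8.18e-06). F5, a cofactor, had 714 ± 27.6 CPM in HFD_PFOA and 1002 ± 43.6 CPM in HFD_vehicle (log2 fold change -0.49 ± 0.08, edgeR adjusted p = 1.81e-04). The rises included F3, tissue factor (4.55 ± 0.651 CPM in HFD_PFOA and 1.86 ± 0.593 CPM in HFD_vehicle; log2 fold change 1.29 ± 0.34, edgeR adjusted p = 0.0113).

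Of the other secreted plasma proteins, 0 of 33 tested members rose and 19 fell, with a median log2 fold change of -0.50. Alb, serum albumin, had 46325, 37369.8, 37556 and 37034 CPM in HFD_PFOA, against 58551, 58786, 70767 and 61896 CPM in HFD_vehicle (log2 fold change -0.66 ± 0.14, edgeR adjusted p = 0.00168). HFD_PFOA 1 stood above the other HFD_PFOA mice for Alb but below every HFD_vehicle mouse. Trf, the iron carrier transferrin, had 720.2 ± 93.6 CPM in HFD_PFOA and 1438 ± 173 CPM in HFD_vehicle (log2 fold change -0.998 ± 0.18, edgeR adjusted p = 4.98e-04). Lect2, a hepatokine, had 43.99 ± 4.44 CPM in HFD_PFOA and 93.4 ± 9.40 CPM in HFD_vehicle (log2 fold change -1.09 ± 0.10, edgeR adjusted p = 3.45e-07). Acute phase genes gave 0 rises and 6 falls of 29, with a median of -0.53; the falls numbered 14 with no filter on low counts and 18 in a fit on the 8 HFD libraries alone. Serpina3m, a protease inhibitor, fell with a log2 fold change of -1.74 ± 0.16, edgeR adjusted p = 1.96e-07 and Itih4 of -1.23 ± 0.33, edgeR adjusted p = 0.0123, while Saa1, the strongest acute phase marker of mice, had 29.7, 9.62, 11.4 and 11.3 CPM in HFD_PFOA, against 69.6, 92.4, 67.8 and 79.1 CPM in HFD_vehicle and was not called (log2 fold change -2.32 ± 0.92, edgeR adjusted p = 0.0960). Saa1 was called lower with no filter (edgeR adjusted p = 2.81e-04) and in the fit on the 8 HFD libraries (edgeR adjusted p = 9.35e-06). The summed hepatocyte markers, which were lower in the same libraries, include Alb and Cps1, and their part in these counts was not tested.

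Genes for protein folding in the endoplasmic reticulum were the most uniformly lower group. Of them, 0 of 27 tested members rose and 24 fell, with a median log2 fold change of -0.77. Herpud1, which serves degradation of misfolded proteins, had 322, 268, 255 and 248 CPM in HFD_PFOA, against 621, 736, 783 and 729.7 CPM in HFD_vehicle (log2 fold change -1.39 ± 0.13, edgeR adjusted p = 1.85e-07). Pdia6, a disulfide isomerase, had 117 ± 11.4 CPM in HFD_PFOA and 268 ± 22.1 CPM in HFD_vehicle (log2 fold change -1.20 ± 0.17, edgeR adjusted p = 2.82e-05). P4hb, also a disulfide isomerase, had 929.8 ± 131 CPM in HFD_PFOA and 1589 ± 36.2 CPM in HFD_vehicle (log2 fold change -0.77 ± 0.13, edgeR adjusted p = 2.30e-04). Sensors, chaperones and isomerases shared the direction. Manf, a stress-induced secreted protein, had 76.7, 43.5, 38.5 and 39.2 CPM in HFD_PFOA, against 139, 152, 134 and 134 CPM in HFD_vehicle (log2 fold change -1.498 ± 0.28, edgeR adjusted p = 8.37e-04). Calr, the chaperone calreticulin, had 642 ± 54.97 CPM in HFD_PFOA and 1099 ± 43.004 CPM in HFD_vehicle (log2 fold change -0.77 ± 0.15, edgeR adjusted p = 0.00114). Atf6, a sensor of the unfolded protein response, fell with a log2 fold change of -0.57 ± 0.11, edgeR adjusted p = 6.39e-04.

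Integrated stress response genes had another balance, since 8 of 22 rose and 1 fell (median 0.32). Asns, asparagine synthetase, had 9.998, 7.29, 3.27 and 4.74 CPM in HFD_PFOA, against 0.811, 0.918, 1.93 and 1.65 CPM in HFD_vehicle (log2 fold change 2.27 ± 0.44, edgeR adjusted p = 0.00101). Trib3, a pseudokinase induced by ATF4, had 33.6 ± 5.24 CPM in HFD_PFOA and 9.02 ± 1.67 CPM in HFD_vehicle (log2 fold change 1.89 ± 0.20, edgeR adjusted p = 1.02e-06). Nupr1, a stress-induced chromatin protein, had 25.95 ± 3.15 CPM in HFD_PFOA and 6.53 ± 1.54 CPM in HFD_vehicle (log2 fold change 1.99 ± 0.27, edgeR adjusted p = 1.99e-05). Chac1, also an ATF4 target, fell (2.81 ± 1.30 CPM in HFD_PFOA and 13.9 ± 1.16 CPM in HFD_vehicle; log2 fold change -2.30 ± 0.34, edgeR adjusted p = 7.14e-05). Among proteasome subunits, 15 of 38 tested members rose and 0 fell, with a median log2 fold change of 0.22. Psmd4, a ubiquitin receptor, had 141 ± 10.01 CPM in HFD_PFOA and 80.2 ± 12.4 CPM in HFD_vehicle (log2 fold change 0.81 ± 0.11, edgeR adjusted p = 2.75e-05). That count became 9 without HFD_PFOA 1, 9 without HFD_vehicle 2 and 8 without HFD_vehicle 4.

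**Figure D4:**
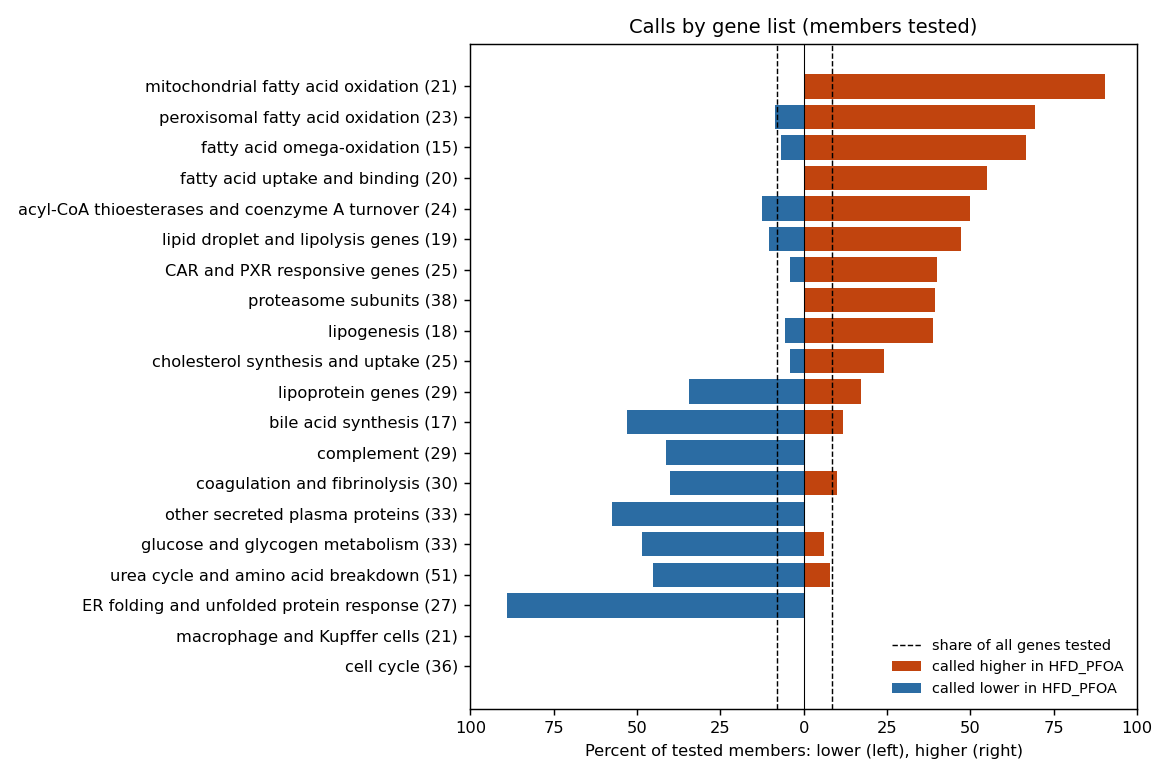
Bars give the percent of tested members of 20 gene lists called lower (left) or higher (right) in HFD_PFOA, with the number tested in brackets and dashed lines at the 7.91% and 8.6% of all genes. Fatty acid lists extend to the right and plasma protein, bile acid, sugar, amino acid and folding lists to the left; the macrophage and cell cycle lists have no called member.

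Among sugar metabolism genes, falls outnumbered rises. Of the glucose and glycogen genes, 2 of 33 tested members rose and 16 fell, with a median log2 fold change of -0.42. Slc37a4, the glucose-6-phosphate transporter of the last step of gluconeogenesis, had 40.2, 35.04, 40.8 and 37.7 CPM in HFD_PFOA, against 101.2, 104, 130.04 and 111 CPM in HFD_vehicle (log2 fold change -1.54 ± 0.13, edgeR adjusted p = 3.91e-08). Khk, which phosphorylates fructose, had 124, 125, 100.7 and 122 CPM in HFD_PFOA, against 345, 319.6, 347 and 325 CPM in HFD_vehicle (log2 fold change -1.501 ± 0.13, edgeR adjusted p = 7.07e-08). Slc2a2, the hepatocyte glucose transporter, had 165 ± 19.9 CPM in HFD_PFOA and 435 ± 29.4 CPM in HFD_vehicle (log2 fold change -1.40 ± 0.16, edgeR adjusted p = 3.90e-06). Fbp1, a gluconeogenic phosphatase, had 477 ± 26.2 CPM in HFD_PFOA and 926 ± 51.2 CPM in HFD_vehicle (log2 fold change -0.96 ± 0.09, edgeR adjusted p = 2.45e-07). Gbe1, the glycogen branching enzyme, had 119 ± 8.04 CPM in HFD_PFOA and 278 ± 13.02 CPM in HFD_vehicle (log2 fold change -1.22 ± 0.11, edgeR adjusted p = 1.96e-07). Pck1, the enzyme that commits to gluconeogenesis, fell with a log2 fold change of -1.01 ± 0.18, edgeR adjusted p = 4.17e-04. All 6 of these named genes fell. Pdk4, the kinase that shuts pyruvate dehydrogenase and so spares glucose, had 565, 511, 488 and 466 CPM in HFD_PFOA, against 36.3, 39.02, 21.5 and 31.3 CPM in HFD_vehicle (log2 fold change 3.98 ± 0.32, edgeR adjusted p = 2.82e-08). Its opponent Pdp2, a phosphatase, rose too (55.4 ± 4.49 CPM in HFD_PFOA and 31.8 ± 2.10 CPM in HFD_vehicle; log2 fold change 0.80 ± 0.11, edgeR adjusted p = 2.06e-05), and Pdha1, a subunit of the dehydrogenase, was not called (107 ± 3.32 CPM in HFD_PFOA and 123 ± 7.92 CPM in HFD_vehicle; log2 fold change -0.20 ± 0.10, edgeR adjusted p = 0.168).

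Falls also outnumbered rises for amino acid breakdown and the urea cycle. Of these genes, 4 of 51 tested members rose and 23 fell, with a median log2 fold change of -0.29. Cps1, the entry enzyme of the urea cycle, had 1120.04 ± 133 CPM in HFD_PFOA and 2426 ± 299 CPM in HFD_vehicle (log2 fold change -1.11 ± 0.19, edgeR adjusted p = 2.30e-04). Ass1, a later enzyme of the cycle, had 419 ± 23.9 CPM in HFD_PFOA and 736 ± 87.6 CPM in HFD_vehicle (log2 fold change -0.81 ± 0.18, edgeR adjusted p = 0.00308). Glul, glutamine synthetase, had 428, 261, 211 and 273 CPM in HFD_PFOA, against 1227, 1133, 1169.96 and 989 CPM in HFD_vehicle (log2 fold change -1.95 ± 0.23, edgeR adjusted p = 3.98e-06). Gamt, which makes creatine, fell with a log2 fold change of -1.42 ± 0.18, edgeR adjusted p = 8.38e-06, Prodh, proline dehydrogenase, of -1.27 ± 0.16, edgeR adjusted p = 8.84e-06 and Bhmt, a methyl donor enzyme, of -1.21 ± 0.16, edgeR adjusted p = 2.68e-05. The branched-chain enzymes Ivd and Hibch rose, by 0.54 ± 0.14, edgeR adjusted p = 0.00815 and by 0.67 ± 0.09, edgeR adjusted p = 2.69e-05. Glul is also a marker of hepatocytes around the central vein. Of the pericentral genes, 2 of 23 rose and 8 fell (median -0.11), and of the periportal genes, 0 of 18 rose and 8 fell (median -0.30). The pericentral median became -0.38 without HFD_PFOA 1 and -0.05 without HFD_PFOA 2. Lgr5, a Wnt target of the pericentral ring, had 2.40 ± 0.291 CPM in HFD_PFOA and 8.69 ± 0.705 CPM in HFD_vehicle (log2 fold change -1.86 ± 0.21, edgeR adjusted p = 2.89e-06). Oat, ornithine aminotransferase, had 108 ± 66.95 CPM in HFD_PFOA and 461 ± 77.6 CPM in HFD_vehicle (log2 fold change -2.09 ± 0.31, edgeR adjusted p = 5.81e-05). Slc1a2, a glutamate transporter, had 15.6 ± 5.15 CPM in HFD_PFOA and 109 ± 16.4 CPM in HFD_vehicle (log2 fold change -2.81 ± 0.25, edgeR adjusted p = 1.29e-07).

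Regulators and endocrine genes changed in both directions. Among hepatocyte transcription factors and nuclear receptors, 7 of 35 rose and 12 fell (median 0.14). The falls became 8 without HFD_PFOA 2, HFD_PFOA 4 or HFD_vehicle 3, and the median became 0.01 without HFD_PFOA 1, 0.09 without HFD_PFOA 2, 0.09 without HFD_vehicle 2 and 0.08 without HFD_vehicle 3. Esr1, the oestrogen receptor, had 7.46, 5.199, 3.70 and 4.23 CPM in HFD_PFOA, against 16.6, 14.7, 17.9 and 15.1 CPM in HFD_vehicle (log2 fold change -1.64 ± 0.33, edgeR adjusted p = 0.00132). Onecut1, a hepatocyte differentiation factor, had 5.93, 3.81, 11.4 and 3.68 CPM in HFD_PFOA, against 1.85, 2.45, 1.67 and 1.84 CPM in HFD_vehicle (log2 fold change 1.67 ± 0.33, edgeR adjusted p = 0.00131). Ppargc1b, a coactivator of oxidation genes, had 9.83 ± 1.19 CPM in HFD_PFOA and 3.999 ± 1.59 CPM in HFD_vehicle (log2 fold change 1.30 ± 0.28, edgeR adjusted p = 0.00237). In the growth hormone and IGF axis, 2 of 20 rose and 5 fell (median 0.19). That median became 0.07 without HFD_PFOA 3, 0.30 without HFD_PFOA 4, 0.12 without HFD_vehicle 1, 0.05 without HFD_vehicle 3 and 0.11 without HFD_vehicle 4. Ghr, the growth hormone receptor, fell with a log2 fold change of -0.63 ± 0.11, edgeR adjusted p = 3.27e-04, and Prlr, the prolactin receptor, of -1.30 ± 0.21, edgeR adjusted p = 1.65e-04. Igfbp2, an IGF binding protein, had 638, 499, 605 and 561 CPM in HFD_PFOA, against 160.3, 151, 139 and 86.6 CPM in HFD_vehicle (log2 fold change 2.10 ± 0.22, edgeR adjusted p = 8.21e-07). Lepr, the leptin receptor, had 35.03, 53.1, 33.9 and 39.2 CPM in HFD_PFOA, against 9.54, 8.98, 12.1 and 6.59 CPM in HFD_vehicle (log2 fold change 2.13 ± 0.23, edgeR adjusted p = 1.23e-06). Fgf21, a fasting hormone of the liver, had 11.6, 30.99, 15.6 and 26.8 CPM in HFD_PFOA, against 8.92, 9.23, 8.26 and 6.09 CPM in HFD_vehicle (log2 fold change 1.39 ± 0.36, edgeR adjusted p = 0.0113), and its call was lost without HFD_PFOA 2 (edgeR adjusted p = 0.0510). Of the male-biased genes, 3 of 26 rose and 7 fell (median -0.40), and of the female-biased genes, 8 of 22 rose and 2 fell (median 0.33). The male-biased median became -1.06 without HFD_PFOA 1, -0.24 without HFD_PFOA 2 and -0.25 without HFD_PFOA 4, and the female-biased median 0.62 without HFD_vehicle 4. Mup20, a urinary pheromone, had 152, 92.8, 109 and 87.0 CPM in HFD_PFOA, against 1250.4, 1039, 596 and 1033 CPM in HFD_vehicle (log2 fold change -3.15 ± 0.24, edgeR adjusted p = 1.51e-08). The major urinary proteins are near-identical copies and varied widely within both groups: 4 of 19 fell, and their median of -1.12 became -2.39 without HFD_PFOA 1, -0.73 without HFD_PFOA 2, -0.70 without HFD_PFOA 4 and 0.49 without HFD_vehicle 1.

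Clock genes moved in both directions. Of them, 6 of 19 tested members rose and 7 fell, with a median log2 fold change of -0.10. Dbp, an output regulator of the clock, had 31.1, 21.04, 19.3 and 18.5 CPM in HFD_PFOA, against 3.78, 2.499, 5.80 and 4.18 CPM in HFD_vehicle (log2 fold change 2.48 ± 0.36, edgeR adjusted p = 5.42e-05). Per3 had 10.6, 13.3, 9.92 and 9.20 CPM in HFD_PFOA, against 2.201, 1.43, 2.998 and 2.84 CPM in HFD_vehicle (log2 fold change 2.19 ± 0.40, edgeR adjusted p = 5.39e-04). Both were higher in every HFD_PFOA liver, and the next pair was lower. Arntl, the activator at the core of the clock, had 13.4, 11.6, 15.1 and 10.1 CPM in HFD_PFOA, against 28.2, 24.6, 18.7 and 26.2 CPM in HFD_vehicle (log2 fold change -0.96 ± 0.16, edgeR adjusted p = 2.95e-04) and the repressor Cry1 4.66, 4.01, 2.995 and 2.66 CPM in HFD_PFOA, against 14.2, 9.90, 12.4 and 6.86 CPM in HFD_vehicle (log2 fold change -1.596 ± 0.24, edgeR adjusted p = 7.30e-05). The labels do not name the hour at which livers were taken, and its part in these differences was not tested.

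Transcripts of the mitochondrial genome took 13.5 to 14.9% of counts in HFD_PFOA and 10.8 to 13.2% in HFD_vehicle. Of the 7 tested mitochondrially encoded genes, 4 rose and 0 fell. The count of rises became 2 without HFD_PFOA 1, 1 without HFD_PFOA 2, 1 without HFD_PFOA 4, 1 without HFD_vehicle 1 and 1 without HFD_vehicle 2. mt-Nd1, a subunit of complex I, had 20286, 22856, 20800.1 and 22398 CPM in HFD_PFOA, against 14498, 13555, 15193 and 12918 CPM in HFD_vehicle (log2 fold change 0.62 ± 0.12, edgeR adjusted p = 7.27e-04). Of the nuclear oxidative phosphorylation genes, 6 of 92 rose and 0 fell (median 0.14), and the rises became 3 without HFD_vehicle 2 and 3 without HFD_vehicle 3. Ndufab1, the mitochondrial acyl carrier protein, had 35.9 ± 2.58 CPM in HFD_PFOA and 13.9 ± 1.58 CPM in HFD_vehicle (log2 fold change 1.37 ± 0.14, edgeR adjusted p = 4.60e-07). Cox6b2, a cytochrome oxidase subunit best known from testis, had 11.9 ± 2.71 CPM in HFD_PFOA and 0.265 ± 0.115 CPM in HFD_vehicle (log2 fold change 5.42 ± 0.39, edgeR adjusted p = 5.84e-09). Of the ribosomal protein genes, 3 of 75 rose and 0 fell (median 0.16).

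The macrophage, neutrophil, lymphocyte and cell cycle lists held no called gene, while the lipid-associated macrophage and matrix lists held some. Of 21 macrophage and Kupffer cell genes, 8 neutrophil genes, 17 T and NK cell genes, 11 B cell genes and 36 cell cycle genes, 0 were called by edgeR. At an unadjusted p under 0.05, 2 macrophage and 8 cell cycle genes passed and 0 of the other 3 lists; DESeq2 called 3 cell cycle genes, and limma-voom 0 genes of these 5 lists. Under other edgeR settings, cell cycle genes called higher numbered 4 with no filter, 2 with the 1 CPM filter and 5 in the fit on the 8 HFD libraries, which also called 1 cell cycle gene lower and 1 B cell gene higher. With no filter and in that fit alike, 1 macrophage gene was called higher and 2 lower. Cd68, a macrophage marker, had 16.7, 27.4, 26.8 and 35.2 CPM in HFD_PFOA, against 33.3, 34.2, 42.2 and 50.7 CPM in HFD_vehicle (log2 fold change -0.60 ± 0.27, edgeR adjusted p = 0.159). It was called lower with no filter (edgeR adjusted p = 0.0248) and in the fit on the 8 HFD libraries (edgeR adjusted p = 0.0238). Mki67, a marker of dividing cells, had 12.6, 23.5, 39.9 and 22.1 CPM in HFD_PFOA, against 15.3, 11.2, 8.73 and 15.1 CPM in HFD_vehicle (log2 fold change 0.96 ± 0.33, edgeR adjusted p = 0.0542). It was called higher with no filter, with the 1 CPM filter and in the fit on the 8 HFD libraries (edgeR adjusted p = 0.00121, 0.0496 and 0.0136). Leaving out HFD_PFOA 1 brought 5 cell cycle genes, Mki67 included, to a higher call. Neutrophil markers had summed levels of 7.49 to 31.1 CPM in HFD_PFOA and 6.09 to 9.85 CPM in HFD_vehicle, with HFD_PFOA 1 holding the highest. For lipid-associated macrophage genes, 3 of 18 rose and 4 fell (median -0.48), with log2 fold changes from -1.55 to 2.15. The members named next all had lower means in HFD_PFOA, and the 3 that rose are not named here. Spp1, osteopontin, had 42.5, 55.7, 63.2 and 61.9 CPM in HFD_PFOA, against 132, 160.3, 111 and 228.7 CPM in HFD_vehicle (log2 fold change -1.502 ± 0.26, edgeR adjusted p = 2.91e-04), whereas Trem2, a receptor of these cells, had 1.78, 2.87, 1.71 and 3.49 CPM in HFD_PFOA, against 5.14, 7.91, 5.60 and 8.66 CPM in HFD_vehicle and was not called (log2 fold change -1.47 ± 0.53, edgeR adjusted p = 0.0638). Trem2 was called lower by DESeq2, by limma-voom, with no filter and in the fit on the 8 HFD libraries. Gpnmb, a glycoprotein of the same cells, had 5.59, 37.2, 37.2 and 34.1 CPM in HFD_PFOA, against 15.9, 42.3, 38.5 and 86.4 CPM in HFD_vehicle and was not called (log2 fold change -0.68 ± 0.56, edgeR adjusted p = 0.473). The falls of that list became 2 without HFD_PFOA 2, 2 without HFD_PFOA 3, 2 without HFD_PFOA 4, 2 without HFD_vehicle 2 and 1 without HFD_vehicle 4, but 7 with no filter, 7 in the fit on the 8 HFD libraries and 8 with limma-voom, and its median became -0.27 without HFD_vehicle 4. Of the extracellular matrix genes, 1 of 30 rose and 4 fell (median -0.24). The falls became 2 without HFD_PFOA 2, 2 without HFD_PFOA 4, 2 without HFD_vehicle 2 and 2 without HFD_vehicle 4, and the median -0.15 without HFD_PFOA 2 and -0.15 without HFD_vehicle 4. Lum, a collagen-binding proteoglycan, had 9.83, 4.75, 8.95 and 6.50 CPM in HFD_PFOA, against 16.9, 19.5, 14.1 and 14.1 CPM in HFD_vehicle (log2 fold change -1.11 ± 0.28, edgeR adjusted p = 0.00989), Col4a2, a basement membrane collagen, rose by 0.82 ± 0.14, edgeR adjusted p = 2.85e-04 and Col1a1, the main fibrillar collagen, was not called (39.3 ± 3.99 CPM in HFD_PFOA and 47.2 ± 9.44 CPM in HFD_vehicle; log2 fold change -0.26 ± 0.26, edgeR adjusted p = 0.578).

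Stellate cell genes gave 0 rises and 5 falls of 17, but the falls became 2 without HFD_PFOA 1, 3 without HFD_PFOA 2, 0 without HFD_PFOA 3, 1 without HFD_vehicle 1, 1 without HFD_vehicle 2 and 2 without HFD_vehicle 3, and the summed level of the list was 571 to 814 CPM in HFD_PFOA and 802 to 910.1 CPM in HFD_vehicle. Of the cholangiocyte genes, 0 of 13 rose and 2 fell (median -0.40), with summed levels of 258 to 294 CPM in HFD_PFOA and 329 to 476 CPM in HFD_vehicle. That median became -0.22 without HFD_PFOA 1, -0.22 without HFD_PFOA 2, -0.25 without HFD_vehicle 1 and -0.19 without HFD_vehicle 4.

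Lists of other responses had called members in both directions. Of the p53 targets and growth arrest genes, 4 of 25 rose and 4 fell (median -0.14); the falls became 2 without HFD_PFOA 1 and 2 without HFD_PFOA 3. Gadd45a, a growth arrest gene, had 12.5, 14.7, 13.8 and 12.4 CPM in HFD_PFOA, against 4.17, 2.04, 2.73 and 2.80 CPM in HFD_vehicle (log2 fold change 2.17 ± 0.27, edgeR adjusted p = 1.01e-05). Cdkn1a, the cell cycle inhibitor p21, had 25.8, 60.7, 52.8 and 63.8 CPM in HFD_PFOA, against 146, 194, 184 and 187 CPM in HFD_vehicle (log2 fold change -1.81 ± 0.24, edgeR adjusted p = 1.60e-05). Of the cytokine, chemokine and adhesion list, 1 of 28 rose and 4 fell (median 0.01), and Mmd2, a membrane protein in that list though no cytokine, had 0.352 ± 0.350 CPM in HFD_PFOA and 7.99 ± 4.43 CPM in HFD_vehicle (log2 fold change -4.51 ± 0.52, edgeR adjusted p = 3.88e-06). Ccl6, a chemokine of macrophages, had 7.24, 14.2, 17.2 and 17.1 CPM in HFD_PFOA, against 26.5, 24.6, 32.2 and 37.7 CPM in HFD_vehicle (log2 fold change -1.12 ± 0.24, edgeR adjusted p = 0.00244). Of the interferon and antigen presentation genes, 1 of 34 rose and 3 fell (median -0.14), with H2-D1, a major histocompatibility gene, at -0.52 ± 0.10, edgeR adjusted p = 0.00110. Of the lysosome and autophagy genes, 4 of 25 rose and 3 fell (median -0.13), with Npc1, a cholesterol exporter, at 0.63 ± 0.09, edgeR adjusted p = 5.09e-05; the rises became 2 without HFD_PFOA 4. Of the heme and iron genes, 3 of 25 rose and 5 fell (median -0.05), and the falls became 2 without HFD_PFOA 2, 2 without HFD_PFOA 3, 3 without HFD_PFOA 4, 3 without HFD_vehicle 1, 3 without HFD_vehicle 2, 3 without HFD_vehicle 3 and 2 without HFD_vehicle 4. Cpox, an enzyme of heme synthesis, had 283 ± 28.1 CPM in HFD_PFOA and 159.6 ± 7.64 CPM in HFD_vehicle (log2 fold change 0.82 ± 0.11, edgeR adjusted p = 1.22e-05).

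Because the question was put to a liver changed by diet, the levels of HFD_vehicle were also set beside CD_vehicle. The diet contrast under vehicle called 1561 genes (10.4% of those tested). It shares the HFD_vehicle libraries with the PFOA contrast, so no overlap between them is given and values are listed side by side. Plin4 had 17.5 ± 6.72 CPM in HFD_PFOA, 78.9 ± 7.12 CPM in HFD_vehicle and 19.04 ± 11.7 CPM in CD_vehicle, and its diet difference was 2.05 ± 0.30, edgeR adjusted p = 3.84e-04 on the log2 scale. Spp1 had 55.8 ± 9.44 CPM in HFD_PFOA, 158 ± 51.3 CPM in HFD_vehicle and 49.3 ± 21.6 CPM in CD_vehicle (1.68 ± 0.26, edgeR adjusted p = 5.06e-04 for diet). Lum had 7.51 ± 2.32 CPM in HFD_PFOA, 16.2 ± 2.58 CPM in HFD_vehicle and 7.20 ± 3.25 CPM in CD_vehicle (1.17 ± 0.29, edgeR adjusted p = 0.0128 for diet). In these genes the level was higher in HFD_vehicle than in CD_vehicle and lower in HFD_PFOA than in HFD_vehicle. PFOA was not followed by a called change in the next 3 genes in the main fit. Trem2, however, was called lower by DESeq2, by limma-voom, with no filter and in the fit on the 8 HFD libraries. Trem2 had 2.46 ± 0.864 CPM in HFD_PFOA, 6.82 ± 1.72 CPM in HFD_vehicle and 0.633 ± 0.473 CPM in CD_vehicle (3.42 ± 0.59, edgeR adjusted p = 0.00114 for diet). Gpnmb had 28.5 ± 15.3 CPM in HFD_PFOA, 45.8 ± 29.5 CPM in HFD_vehicle and 0.636 ± 1.04 CPM in CD_vehicle (6.13 ± 0.78, edgeR adjusted p = 1.25e-04 for diet). Col1a1 had 39.3 ± 3.99 CPM in HFD_PFOA, 47.2 ± 9.44 CPM in HFD_vehicle and 14.05 ± 8.41 CPM in CD_vehicle (1.75 ± 0.28, edgeR adjusted p = 6.03e-04 for diet). In another 3 genes HFD_PFOA exceeded HFD_vehicle, which exceeded CD_vehicle. Aqp7, a glycerol channel of fat cells, had 6.92 ± 1.63 CPM in HFD_PFOA, 1.17 ± 0.315 CPM in HFD_vehicle and 0.191 ± 0.245 CPM in CD_vehicle (2.56 ± 0.58, edgeR adjusted p = 0.00792 for diet). Scd2 had 508 ± 218.999 CPM in HFD_PFOA, 43.8 ± 9.98 CPM in HFD_vehicle and 15.04 ± 8.30 CPM in CD_vehicle (1.55 ± 0.37, edgeR adjusted p = 0.0115 for diet). Krt23 had 66.1 ± 4.003 CPM in HFD_PFOA, 3.08 ± 1.55 CPM in HFD_vehicle and 0.995 ± 0.717 CPM in CD_vehicle (1.59 ± 0.36, edgeR adjusted p = 0.00804 for diet). Some genes were higher in HFD_PFOA than in HFD_vehicle and lower in HFD_vehicle than in CD_vehicle. Lss had 46.2 ± 3.54 CPM in HFD_PFOA, 25.3 ± 3.98 CPM in HFD_vehicle and 64.5 ± 25.9 CPM in CD_vehicle (-1.35 ± 0.20, edgeR adjusted p = 4.20e-04 for diet). Acacb had 259 ± 19.04 CPM in HFD_PFOA, 119 ± 25.9 CPM in HFD_vehicle and 274 ± 91.1 CPM in CD_vehicle (-1.20 ± 0.21, edgeR adjusted p = 0.00112 for diet). Pltp had 142 ± 25.9 CPM in HFD_PFOA, 35.5 ± 6.31 CPM in HFD_vehicle and 65.4 ± 21.7 CPM in CD_vehicle (-0.88 ± 0.20, edgeR adjusted p = 0.00749 for diet). Others were lower in HFD_PFOA than in HFD_vehicle and lower in HFD_vehicle than in CD_vehicle. Alb had 39571 ± 4508 CPM in HFD_PFOA, 62500.00 ± 5719 CPM in HFD_vehicle and 95245 ± 17288 CPM in CD_vehicle (-0.61 ± 0.14, edgeR adjusted p = 0.00680 for diet). Slco1a1, an organic anion transporter, had 4.99 ± 1.68 CPM in HFD_PFOA, 39.6 ± 36.95 CPM in HFD_vehicle and 228.6 ± 125 CPM in CD_vehicle (-2.52 ± 0.57, edgeR adjusted p = 0.00789 for diet). The PFOA call of Slco1a1 on HFD (log2 fold change -2.999 ± 0.62, edgeR adjusted p = 0.00183) was lost with limma-voom (adjusted p = 0.117), and its HFD groups overlapped. By list, diet under vehicle had 9 of 21 members higher and 0 lower for macrophages and 13 of 18 members higher and 1 lower for lipid-associated macrophages. It had 17 of 30 members higher and 1 lower for extracellular matrix and 8 of 14 members higher and 0 lower for PPARgamma-linked steatosis. For cholesterol synthesis it had 0 of 25 members higher and 21 lower, and for nuclear oxidative phosphorylation 0 of 92 members higher and 33 lower.

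Whether the response to PFOA depended on the diet was tested gene by gene with the interaction, the log2 fold change on HFD minus that on CD. It called 31 genes (0.207% of those tested), 10 positive (0.0667%) and 21 negative (0.14%). The named genes here are those with the smallest interaction p and any other called gene already named. Cyp3a11, a PXR target P450, had 5499 ± 298 CPM in HFD_PFOA, 3697 ± 846 CPM in HFD_vehicle, 4615 ± 267 CPM in CD_PFOA and 1105 ± 138 CPM in CD_vehicle. Its log2 fold change was 0.57 ± 0.13 on HFD and 2.06 ± 0.14 on CD (interaction -1.49 ± 0.19, edgeR adjusted p = 0.00244). Lpl had 583 ± 14.6 CPM in HFD_PFOA, 131 ± 29.9 CPM in HFD_vehicle, 489 ± 23.97 CPM in CD_PFOA and 35.5 ± 12.5 CPM in CD_vehicle, with changes of 2.15 ± 0.18 on HFD and 3.78 ± 0.19 on CD (interaction -1.63 ± 0.24, edgeR adjusted p = 0.00971). Cidec had 136 ± 5.98 CPM in HFD_PFOA, 119.8 ± 15.8 CPM in HFD_vehicle, 107 ± 3.38 CPM in CD_PFOA and 18.1 ± 10.2 CPM in CD_vehicle, with changes of 0.18 ± 0.27 on HFD and 2.56 ± 0.29 on CD (interaction -2.38 ± 0.39, edgeR adjusted p = 0.0160). Ephx1, an epoxide hydrolase whose locus overlaps another gene, had changes of 0.63 ± 0.09 on HFD and 1.46 ± 0.10 on CD (interaction -0.83 ± 0.13, edgeR adjusted p = 0.0132). Il1rn, the interleukin-1 receptor antagonist, had changes of 0.93 ± 0.22 on HFD and 2.84 ± 0.25 on CD (interaction -1.91 ± 0.33, edgeR adjusted p = 0.0190), and Gadd45a of 2.17 ± 0.27 on HFD and 4.13 ± 0.31 on CD (interaction -1.95 ± 0.40, edgeR adjusted p = 0.0469). In these 6 genes the log2 change on HFD was smaller than on CD, and the mean level was higher in HFD_vehicle than in CD_vehicle. Both vehicle groups enter the interaction, so these levels are not independent of how the genes were picked. The interaction of Gadd45a was lost under limma-voom and in 12 of 16 fits that left out a library, while the others kept their call in each alternative run. Limch1, a regulator of non-muscle myosin at an overlapping locus, had 10.9 ± 1.14 CPM in HFD_PFOA, 12.002 ± 2.23 CPM in HFD_vehicle, 4.24 ± 0.867 CPM in CD_PFOA and 0.559 ± 0.387 CPM in CD_vehicle (interaction -3.07 ± 0.41, edgeR adjusted p = 0.00328). Fabp5, the epidermal fatty acid binding protein, rose on HFD and was not called on CD, with 13.4 ± 2.14 CPM in HFD_PFOA, 3.48 ± 1.07 CPM in HFD_vehicle, 12.2 ± 4.31 CPM in CD_PFOA and 19.1 ± 6.27 CPM in CD_vehicle (interaction 2.58 ± 0.39, edgeR adjusted p = 0.00996). Nudt7, a peroxisomal coenzyme A hydrolase, had changes of 0.84 ± 0.18 on HFD and -0.65 ± 0.18 on CD (interaction 1.48 ± 0.26, edgeR adjusted p = 0.0192), and Elovl2, an elongase of polyunsaturated chains, of 0.16 ± 0.11 on HFD and -0.80 ± 0.11 on CD (interaction 0.96 ± 0.15, edgeR adjusted p = 0.0108). Ivns1abp, an actin-binding protein, fell on HFD, with changes of -0.97 ± 0.12 on HFD and 0.01 ± 0.12 on CD (interaction -0.98 ± 0.16, edgeR adjusted p = 0.0164). The interactions of these last 5 genes kept their call in each alternative run. A gene outside these 31 is not thereby shown to respond alike on both diets. The count of 31 rested on single libraries: it was 359 without CD_vehicle 4, 107 without CD_vehicle 1 and 13 to 29 without any other library, and it was 290 with no filter on low counts and 209 with DESeq2.

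**Figure D5:**
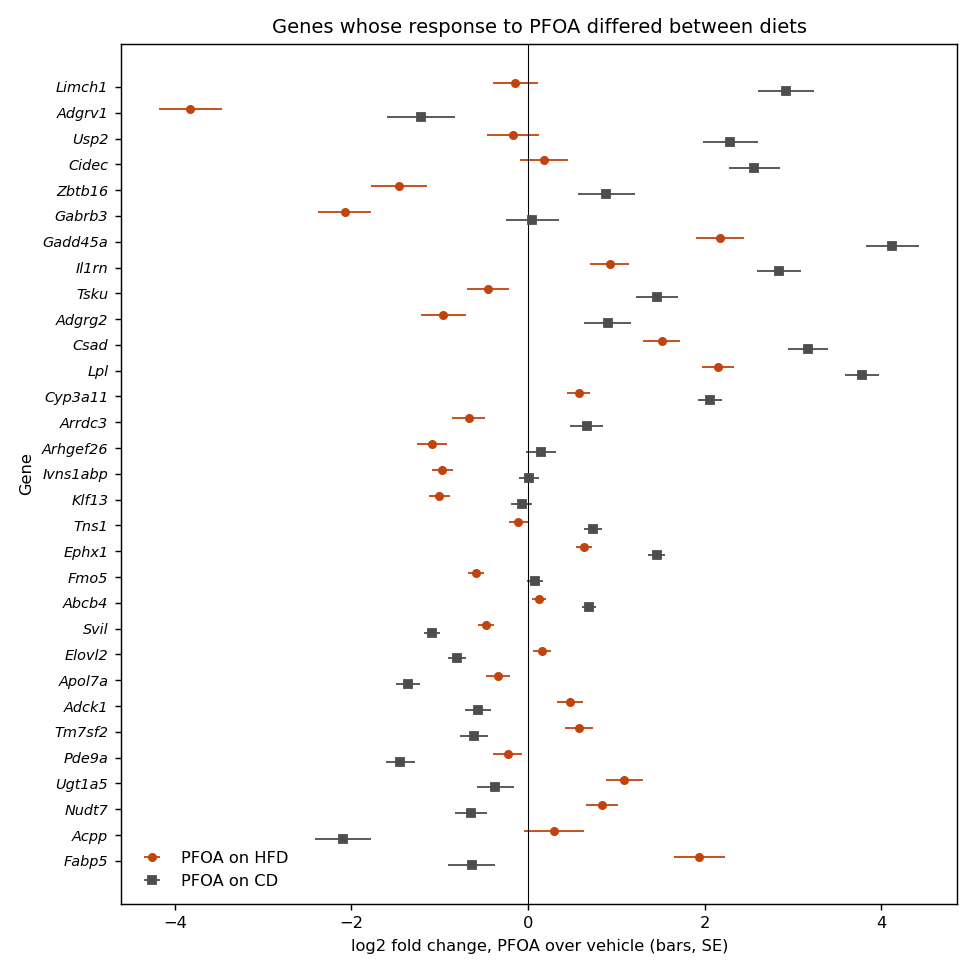
For the 31 genes called by the interaction, circles are the log2 fold change of PFOA over vehicle on HFD and squares that on CD, with bars of 1 SE. Genes run from the most negative interaction at the top to the most positive at the bottom; for Lpl, Cyp3a11, Il1rn and Gadd45a both changes are above 0 and the HFD value is the lower one.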

How the data were processed

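Liver RNA of single mice was sequenced from non-stranded libraries. The deposited table holds raw read counts per gene. Per the submitters' processing notes, bcl2fastq 2.20.0.422, Trimmomatic 0.33, STAR 2.5.2b and Subread 1.6.0 (featureCounts) were used with mouse build GRCm38 (mm10). Genes that overlap on opposite strands and near-identical copies may therefore share or lose counts. Library totals were 14456524 to 24349170 counts in the HFD groups, so that 1 count was 0.0383 to 0.0666 CPM.

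Counts were tested with edgeR 4.0.16 in R 4.3.3. All 16 libraries were fitted together by quasi-likelihood, each group having its own mean, after filterByExpr (14998 genes, 99.94% of counts) and TMM scaling, which gave a common biological coefficient of variation of 0.242. A gene was called at a Benjamini-Hochberg adjusted p under 0.05 over all genes tested. CPM were computed from TMM-scaled totals. Each mouse was a replicate per the labels; counts of replicates differed by more than counting error, with a chi-square of 8.13 to 28.5 for each degree of freedom. A floor of 3 counts and a 95% counting interval were used for genes at or near 0, which cover counting error only. limma 3.58.1 and DESeq2 1.42.0 were alternatives, beside other scalings, filters and the omission of each library. The fit was tested on simulated data. Gene positions are from GENCODE vM21, and promoters from RefSeq on GRCm38.p6.

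The contrast, gene lists and named genes were chosen with earlier results of these data known. Named were the 12 largest rises and falls with at least 1 CPM in the higher group, the 10 smallest p-values in each direction and of the interaction, up to 6 members of each list by p and those called against their list, the 10 most abundant genes and a set of index genes; the text gives a part of these, some genes are not reported here, and Txnip was added after its values were seen.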

Additional observations from a re-analysis of the deposited data

Results flagged for a closer look

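For each named gene the 4 libraries of each HFD group were checked for 1 value standing apart on the log2(CPM + 0.5) scale, with a gap to its neighbour above 0.829 of the group's range. Chance flags about 1 in 20 groups; here 27 of 377 pairs of a gene and a group (7.16%) were found, 12 of them for HFD_PFOA 1. In HFD_PFOA 1 the value stood above its group for Alb (46330 CPM), Cyp3a11 (5942 CPM), Hsd17b11 (2003 CPM), Decr1 (591 CPM), Cyp4a12b (474 CPM), Eci2 (349.5 CPM), Aox3 (192 CPM), Hibch (119 CPM) and Saa1 (29.7 CPM), and below it for Cpt1a (507 CPM), Gpnmb (5.59 CPM) and Vmn2r3 (0.0847 CPM). The other HFD_PFOA values standing apart were Plin4 in HFD_PFOA 4 (27.6 CPM, above), Sdr9c7 in HFD_PFOA 4 (7.87 CPM, below), Khk in HFD_PFOA 3 (100.7 CPM, below) and Cyp21a1 in HFD_PFOA 2 (0 CPM, below). In HFD_vehicle, values stood above their group for Me1 in HFD_vehicle 1 (285 CPM), Prlr and Nqo1 in HFD_vehicle 3 (106 and 14.9 CPM), Ntrk2 and Fgfr4 in HFD_vehicle 4 (75.5 and 34.7 CPM), and Fabp3 and Sptlc3 in HFD_vehicle 2 (0.153 and 0.408 CPM, the others at 0). They stood below it for Pemt and Fabp5 in HFD_vehicle 2 (183 and 1.89 CPM) and for H2-D1 and Cidec in HFD_vehicle 3 (384 and 96.7 CPM).

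The change with PFOA differed between diets by the interaction test for 11 named genes. On the log2 scale the change on HFD minus that on CD was -3.07 for Limch1, -2.38 for Cidec, -1.95 for Gadd45a, -1.91 for Il1rn, -1.63 for Lpl, -1.49 for Cyp3a11, -0.98 for Ivns1abp and -0.83 for Ephx1. It was 0.96 for Elovl2, 1.48 for Nudt7 and 2.58 for Fabp5.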

How the results depend on the processing

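The number of genes called for PFOA on HFD was 2476 as reported and lay between 2390 (no filter beyond 1 count) and 3412 (a fit on the 8 HFD libraries alone) under the other settings. Those were RLE, upper quartile and library total scaling, a filter of 1 CPM, DESeq2 (2824) and limma-voom (2523). Leaving out 1 library gave 2015 to 2204 calls, with 1063 to 1143 higher and 936 to 1061 lower. Scaling by library totals made 1117 of the calls higher and 1353 lower. Of the 175 named genes that were called, 169 kept their call and direction under every alternative; the exceptions were Cpt1a, Cyp7a1, Fgf21, Pparg, Slco1a1 and Vmn2r3. The count of the interaction was the least stable: 290 with no filter, 209 with DESeq2 and 13 to 359 with 1 library left out, against 31. The cause was not tested. In the fit on the 8 HFD libraries alone, 13 rather than 6 nuclear oxidative phosphorylation genes rose and 8 rather than 4 extracellular matrix genes fell. There, falls also numbered 6 rather than 1 for lipogenesis, 11 rather than 7 for bile acid and anion transporters and 6 rather than 3 for interferon genes, and rises 5 rather than 2 for the growth hormone axis and 6 rather than 3 for heme and iron. No paired analysis was made, because each library was from a different mouse and the labels pair no mice across groups. The median of all genes tested moved by under 0.1 under every scaling. With 4 mice per group and 12 residual degrees of freedom, small changes of low genes were not detectable at this depth.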
